A study of Homo sapiens with 6 samples.

Results

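Mitochondrial fatty acid oxidation was followed in HepG2 cells through 10 genes, chosen by their place in the pathway, with earlier results of these data known. They are ACSL1, CPT1A, SLC25A20, CPT2, ACADVL, ACADM, ACADS, HADHA, HADHB and ETFDH. All 10 were found by Ensembl identifier among 60564 gene rows, and all 10 were among the 22230 genes with enough counts to be tested. RNA sequencing had been done on 3 libraries of formononetin-treated cells and 3 libraries of control cells. HepG2 is an established human hepatoma line, labelled as wild type (WT) in both groups. Formononetin is a plant isoflavone, and the treated cells are labelled with 72 h of exposure and a dose of 625, in a unit spelled μm. The control libraries are labelled with the medium DMEM alone, with no solvent and no culture time named, so effects of a solvent or of time in culture cannot be told apart from those of the compound. The comparison asked how transcript levels differed with and without formononetin.

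Long-chain fatty acids are first joined to coenzyme A by an acyl-CoA synthetase such as ACSL1. CPT1A, the liver form of carnitine palmitoyltransferase on the outer mitochondrial membrane, exchanges coenzyme A for carnitine and is the step that malonyl-CoA inhibits. The carrier encoded by SLC25A20 takes acylcarnitine across the inner membrane and CPT2 turns it back into acyl-CoA. Inside, ACADVL, ACADM and ACADS dehydrogenate very long, medium and short chains. HADHA and HADHB form the trifunctional protein that carries out the remaining steps on long chains, and ETFDH passes the electrons to ubiquinone. Hepatocytes depend on this route in fasting.

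Counts on named genes ranged from 37465148 to 45682722 in formononetin libraries and from 30848848 to 36243606 in control libraries. Levels are given in CPM (counts divided by the TMM-adjusted library size, times 1000000) and changes as log2 fold changes of formononetin over control ± SE. A gene was called at an adjusted p under 0.05 (edgeR quasi-likelihood test, Benjamini-Hochberg over all genes tested). All 7 hepatocyte markers, among them ALB, AFP, APOA1 and APOB, were detected, and their summed level ran from 33616 to 34866 CPM in formononetin and from 39198 to 40499 CPM in control libraries, with 6 of 7 called lower. Of 8 markers of immune, endothelial and fibroblast cells, PTPRC, COL3A1 and DCN had 0 counts in every library. The summed level of the tested ones ran from 1002 to 1041 CPM in formononetin and from 1226 to 1317 CPM in control libraries. Nearly all of it was LYZ, which was called lower. CD68 was called higher, at 6.73 CPM with formononetin and 3.35 CPM in control libraries. That call was lost without formononetin replicate 2 or 3. CD68 shares 1789 exon bases with AC016876.2 on the same strand, so its reads may be split. LYZ shares 599 exon bases with AC020656.1 on the opposite strand. Mitochondrially encoded genes held 2.81 to 3.57% of counts in formononetin and 3.80 to 3.92% in control libraries. The part of these differences in the results below was not tested.

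The proximal promoters of 4 of the genes are shown because CPT1A, ACADVL and HADHB were called while CPT2, the partner of CPT1A, was not. Each line gives 250 bases before a RefSeq start (GRCh38.p14), 5′ to 3′ on the strand of the gene. Capitals mark GCGTG, the core bound by the aryl hydrocarbon receptor complex, in the ACADVL line. In the HADHB line they mark the 194 bases that also lie within the window of HADHA, which is transcribed the other way.
CPT1A, chr11:68844278-68844527, minus strand: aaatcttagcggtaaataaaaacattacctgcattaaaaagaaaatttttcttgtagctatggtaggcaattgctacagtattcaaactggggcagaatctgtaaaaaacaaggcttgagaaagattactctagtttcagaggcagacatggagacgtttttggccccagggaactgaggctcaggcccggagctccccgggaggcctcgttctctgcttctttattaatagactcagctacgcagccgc
CPT2, chr1:53196574-53196823, plus strand: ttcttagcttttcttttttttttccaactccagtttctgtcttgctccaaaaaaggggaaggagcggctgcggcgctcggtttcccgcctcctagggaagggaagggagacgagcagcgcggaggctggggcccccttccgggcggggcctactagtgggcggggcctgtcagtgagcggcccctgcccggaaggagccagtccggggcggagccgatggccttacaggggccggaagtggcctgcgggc
ACADVL, second of its 2 RefSeq starts, chr17:7219688-7219937, plus strand: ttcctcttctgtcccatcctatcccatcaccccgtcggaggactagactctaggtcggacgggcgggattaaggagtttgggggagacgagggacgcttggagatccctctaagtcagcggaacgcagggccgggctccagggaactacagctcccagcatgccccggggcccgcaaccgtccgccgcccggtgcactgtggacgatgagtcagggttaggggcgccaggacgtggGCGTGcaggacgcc
HADHB, chr2:26244689-26244938, plus strand: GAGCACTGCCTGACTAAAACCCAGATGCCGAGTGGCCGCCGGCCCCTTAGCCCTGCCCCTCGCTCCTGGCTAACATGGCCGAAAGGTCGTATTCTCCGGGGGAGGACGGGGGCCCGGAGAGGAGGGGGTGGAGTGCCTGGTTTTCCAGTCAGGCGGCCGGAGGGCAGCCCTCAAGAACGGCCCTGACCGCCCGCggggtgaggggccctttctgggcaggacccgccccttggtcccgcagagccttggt

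By these RefSeq starts, HADHA and HADHB begin 307 bases apart, head to head. The GENCODE 29 gene spans given below overlap, since that of HADHB begins at 26243170 and that of HADHA ends at 26244726, though no exon bases are shared. RefSeq windows from 250 bases before to 50 after the start were at hand for 9 members, in 14 windows, since ACSL1 has 5 starts and ACADVL 2. Both strands were searched for 6 motifs. The direct repeat DR1 (AGGTCA, 1 further base, AGGTCA), which PPAR and its partner RXR bind, matched none of the 14 windows and 0.0228% of 35116 promoter windows of all genes. AGGTCA alone, which is part of DR1, matched none, against 13.8% of all windows. CACGTG (the E-box, 7.26% of all windows) and the palindromic site of the factor NRF1 (1.24%) matched none either. TGACNNNGC, the core of the antioxidant response element, was found in 2 of 14 windows, in ACSL1 and ACADVL, against 13.3% of all windows. GCGTG was found in 7 of 14 windows, those of ACSL1, CPT1A, SLC25A20, ACADVL, ACADM and ACADS, against 36.5% of all windows. In CPT1A it lies 31 bases after the start and is outside the printed stretch. These matches are letters in a window and nothing is drawn from them about binding.

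Formononetin libraries held more transcript of 4 of the 10 genes, CPT1A, ACADVL, HADHA and HADHB, and none was called lower. The other 6 did not pass the test, although all 10 fold changes were positive, against 48.7% of all genes tested. Over all genes 12.0% were called higher and 8.71% lower (20.7% in either direction). Among the 9035 genes at or above the mean level of the lowest member, 22.9% were called higher. The median log2 fold change of the members was 0.40, ranging from 0.12 for CPT2 to 1.43 for CPT1A, and that of all genes tested was -0.01. In 8 members every formononetin library lay above every control library, which held for 20.8% of all genes. In bulk RNA, more cells of one kind and more RNA per cell cannot be told apart. Under upper quartile scaling 1813 genes were higher and 2737 lower over all genes, against 2659 and 1937 in the test used here, and the 4 members stayed called.

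**Figure D1:**
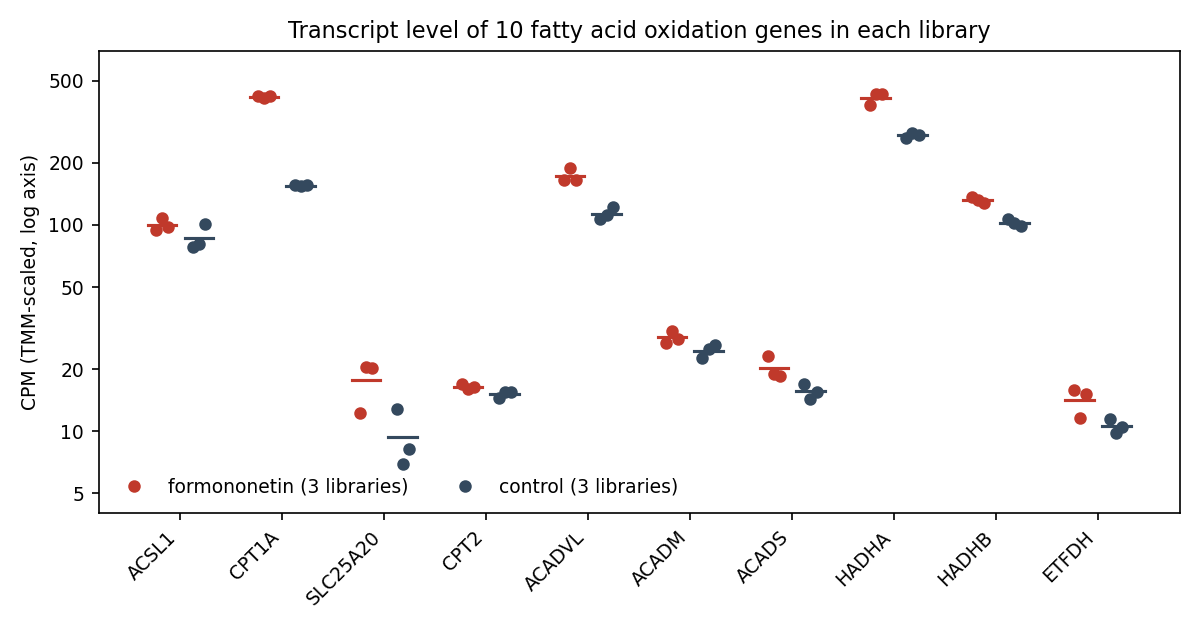
Level of each of the 10 genes in CPM (log axis) in 3 formononetin libraries (red, left of each pair) and 3 control libraries (dark blue, right); points are libraries and lines are means. CPT1A shows the widest gap between the groups, and ACSL1 and SLC25A20 are the genes whose groups overlap.

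ACSL1 (ENSG00000151726, chromosome 4, 184755595 to 184826818, GRCh38), the synthetase that activates long-chain fatty acids in liver, was at 94.5, 108 and 97.3 CPM in formononetin libraries, against 77.9, 80.5 and 101 CPM in control libraries. Control replicate 3 lay inside the range of the formononetin libraries. Its log2 fold change was 0.21 ± 0.11 (adjusted p = 0.223 by edgeR), and 0.33 without control replicate 3, where the gene was called (adjusted p = 0.0309).

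CPT1A (ENSG00000110090, chromosome 11, 68754620 to 68844410), the step that commits acyl groups to mitochondria, stood at 421, 415 and 421 CPM in formononetin libraries, against 156, 155 and 156 CPM in control libraries. The groups were far apart and the libraries within each nearly equal. The log2 fold change was 1.43 ± 0.03, a 2.70-fold higher level with a 95% interval of 2.57 to 2.83 (adjusted p = 3.22e-06 by edgeR). Only 154 genes, 0.693% of those tested, had a log2 fold change as large or larger, CPT1A included. The coefficient of variation was 0.915% in formononetin and 0.274% in control libraries. Counting error alone gives 0.761% and 1.39% at these counts, so the 3 control libraries lay closer together than counting would usually leave them. The gene was called in all 17 alternative settings, with log2 fold changes from 1.35 to 1.47.

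SLC25A20 (ENSG00000178537, chromosome 3, 48856931 to 48898993), the carnitine-acylcarnitine carrier, showed the widest scatter. It was at 12.3, 20.4 and 20.3 CPM in formononetin libraries, against 12.9, 6.90 and 8.23 CPM in control libraries. Formononetin replicate 1 fell below control replicate 1, while the other libraries of the groups were well apart. The log2 fold change of 0.92 ± 0.28 missed the threshold (adjusted p = 0.0540 by edgeR). It was called without formononetin replicate 1, without control replicate 1, with DESeq2 and under scaling by library total, and adjusted p ran from 0.00209 to 0.152 over the alternatives.

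CPT2 (ENSG00000157184, chromosome 1, 53196429 to 53214197) acts directly after the carrier. Its level was 16.9, 16.0 and 16.4 CPM in formononetin libraries, against 14.4, 15.4 and 15.6 CPM in control libraries. All formononetin libraries were the higher ones, by little. On the log2 scale the difference was 0.12 ± 0.07 (adjusted p = 0.312 by edgeR), a ratio of 1.09 with a 95% interval of 0.982 to 1.20, and CPT2 was called in none of the 17 alternatives. Antisense and neighbouring genes on the other strand share exon bases with it.

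ACADVL (ENSG00000072778, chromosome 17, 7217125 to 7225273), the dehydrogenase for very long chains, was at 166, 188 and 164 CPM in formononetin libraries, against 107, 111 and 122 CPM in control libraries. The groups did not overlap. The log2 fold change was 0.61 ± 0.07 (adjusted p = 0.00153 by edgeR). It shares 85 exon bases with DLG4 on the opposite strand, and the sum of both changed by 0.59.

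ACADM (ENSG00000117054, chromosome 1, 75724347 to 75787575), for medium chains, was at 26.6, 30.8 and 28.1 CPM in formononetin libraries, against 22.7, 25.1 and 26.0 CPM in control libraries. The groups lay close without overlapping. Its log2 fold change of 0.21 ± 0.08 did not pass (adjusted p = 0.127 by edgeR) and passed in none of the alternatives. ACADM shares 157 exon bases with RABGGTB on the same strand, so its reads may be split. ACADS (ENSG00000122971, chromosome 12, 120725735 to 120740008), for short chains, was at 23.1, 19.0 and 18.6 CPM in formononetin libraries, against 16.9, 14.3 and 15.5 CPM in control libraries. Here too the groups were apart, but the log2 fold change of 0.38 ± 0.11 lay just outside the threshold (adjusted p = 0.0526 by edgeR). ACADS was called in 4 of 17 alternatives, with adjusted p from 0.0227 to 0.147.

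HADHA (ENSG00000084754, chromosome 2, 26190635 to 26244726), the alpha subunit of the trifunctional protein with hydratase and dehydrogenase activities, was at 379.8, 433 and 430.5 CPM in formononetin libraries, against 266, 281 and 274 CPM in control libraries. Every formononetin library exceeded every control library by a wide margin. The log2 fold change was 0.60 ± 0.06 (adjusted p = 0.000783 by edgeR). Its processed copy HADHAP1 had 303, 262 and 288 counts in formononetin and 180, 248 and 201 in control libraries, against 8070 to 19498 for HADHA. How reads matching both were counted is not stated, so these counts do not show how many were affected.

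HADHB (ENSG00000138029, chromosome 2, 26243170 to 26290468), the beta subunit with thiolase activity, was at 136, 133 and 127 CPM in formononetin libraries, against 106, 102 and 99.2 CPM in control libraries. The groups were again apart, with a log2 fold change of 0.36 ± 0.05 (adjusted p = 0.00251 by edgeR). The ratio of HADHA to HADHB counts was 2.78, 3.27 and 3.38 in formononetin libraries, against 2.49, 2.74 and 2.76 in control libraries. This ratio was chosen after the values were seen. It was higher in all formononetin libraries by 1.18-fold (exact permutation p = 0.1, two-sided, the smallest that 3 against 3 libraries allow).

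ETFDH (ENSG00000171503, chromosome 4, 158672125 to 158709623), which hands electrons to the respiratory chain, was at 15.8, 11.6 and 15.1 CPM in formononetin libraries, against 11.4, 9.83 and 10.4 CPM in control libraries. Formononetin replicate 2 lay close to the highest control library. The log2 fold change of 0.43 ± 0.13 did not pass (adjusted p = 0.0637 by edgeR). It passed in 4 of 17 alternatives, namely with DESeq2, under scaling by library total, without formononetin replicate 2 and as a sum with PPID and C4orf46. PPID and C4orf46 share 490 and 131 exon bases with it on the opposite strand. The sum (0.46 ± 0.06, adjusted p = 0.00168 by edgeR) covers all counts of these genes, so it is no call of ETFDH alone.

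**Figure D2:**
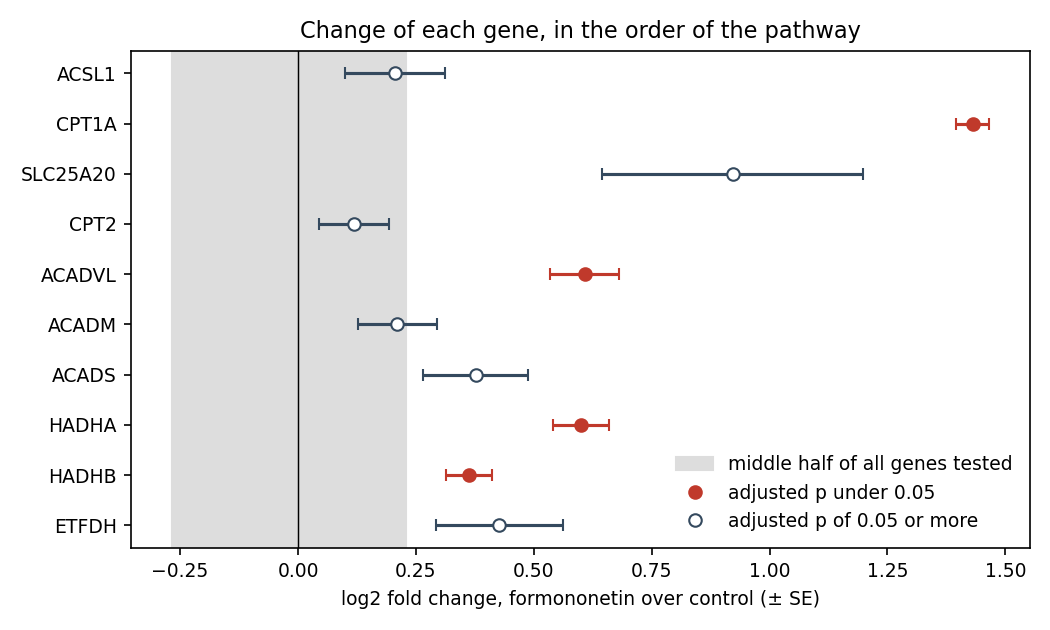
Log2 fold change of formononetin over control with its SE for the 10 genes in the order of the pathway; filled red points were called and open points were not. The grey band is the interquartile range of all genes tested. CPT1A stands at 1.43, ACADVL and HADHA near 0.6, and ACSL1, CPT2 and ACADM lie inside the band.

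Whether CPT1A moved further than the other members was compared within libraries, which needs no scaling between them. The ratio of CPT1A to CPT2 counts was 25.0, 25.8 and 25.6 in formononetin libraries, against 10.8, 10.0 and 9.99 in control libraries, a 2.48-fold higher ratio. For HADHA the ratio was 1.11, 0.956 and 0.978 in formononetin libraries, against 0.586, 0.552 and 0.568 in control libraries. CPT1A thus had about as many counts as HADHA with formononetin and far fewer without it. In 8 of 9 ratios every formononetin library was above every control library, by 1.77-fold for ACADVL to 2.48-fold for CPT2 (exact permutation p = 0.1 each, the smallest possible; 0.113 after Benjamini-Hochberg adjustment over the 9 ratios). The exception was SLC25A20, whose ratio averaged 1.41 times the control ratio with overlapping groups (exact permutation p = 0.4). CPT1A held 31.4 ± 1.21% of the counts of the 10 genes in formononetin libraries and 19.3 ± 0.442% in control libraries (SD, n = 3 each; exact permutation p = 0.1). The summed level of the 10 genes was 1335 ± 41.0 CPM with formononetin and 807 ± 19.0 CPM in control libraries (exact permutation p = 0.1). CPT1A and HADHA weigh most in this sum. With formononetin CPT1A averaged 419 CPM and HADHA 415 CPM, against 155 and 273 CPM in control libraries.

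**Figure D3:**
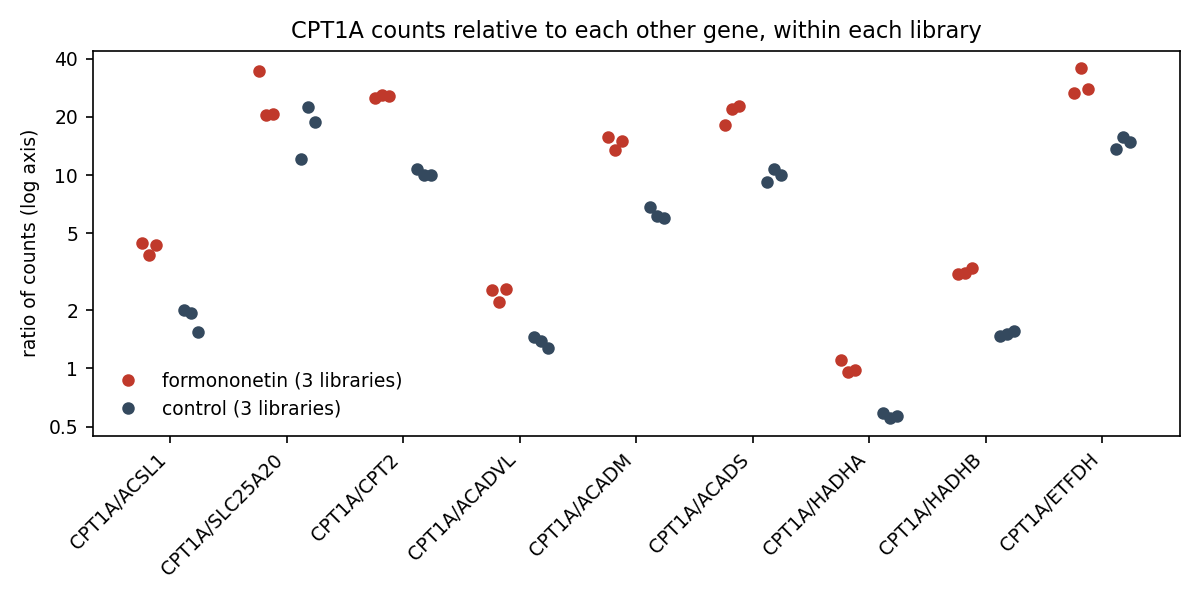
Ratio of CPT1A counts to those of each other gene within each library (log axis), for 3 formononetin libraries (red, left of each pair) and 3 control libraries (dark blue, right). The groups are apart in all ratios but that to SLC25A20.

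Levels of different genes were set side by side per kilobase of annotated exon. The length of each gene was the sum of all its annotated exon bases, not that of the transcripts present. Ranks on this scale therefore depend on the annotation. CPT1A was at 63.8 ± 0.584 CPM per kb in formononetin libraries (SD, n = 3), behind HADHA alone (94.5 ± 6.87). In control libraries it was at 23.7 ± 0.0650 CPM per kb and could not be told from HADHB (24.0 ± 0.849) and ACADVL (23.3 ± 1.56), whose libraries overlapped it. HADHA led there too, at 62.4 ± 1.73 CPM per kb. With formononetin, ACADVL (35.5 ± 2.74) and HADHB (30.9 ± 1.09) followed CPT1A, and ACSL1 stood at 15.9 ± 1.12 CPM per kb. SLC25A20, ACADS and ACADM lay between 5.96 and 8.90 CPM per kb with formononetin and between 4.71 and 5.89 in control libraries, with overlapping libraries among them in control. ETFDH was at 3.16 ± 0.502 with formononetin and 2.35 ± 0.178 in control libraries, and CPT2 was lowest at 1.57 ± 0.0396 and 1.45 ± 0.0587 CPM per kb. For CPT2 this length was 10452 bases, many more than for the other genes, which lowers its value on this scale. How far the length used differs from that of the transcripts present was not tested for any gene.

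Genes around the pathway were described from lists of pathway genes. Beside every list count below stand the same shares over all genes tested, 12.0% called higher and 8.71% lower. Among the 9035 genes at or above the mean level of the lowest member, 22.9% were called higher and 13.3% lower. Of 14 genes for uptake and activation of fatty acids, 6 were called higher and 3 lower, with a median log2 fold change of 0.22. SLC27A2, a very-long-chain acyl-CoA synthetase that also acts in uptake, was at 34.9, 34.4 and 34.7 CPM in formononetin libraries, against 19.2, 17.2 and 18.7 CPM in control libraries (0.92 ± 0.07, adjusted p = 0.000295 by edgeR). SLC27A4, a transporter of the same family, changed by 0.72 ± 0.06 and the scavenger receptor gene CD36 by 0.57 ± 0.15. The falls were in ACSM3 and ACSM1, synthetases for medium-chain acids. ACSM3 was at 36.7, 39.4 and 39.1 CPM in formononetin libraries, against 99.6, 93.8 and 170.2 CPM in control libraries, and changed by -1.66 ± 0.22. Control replicate 3 was far above the other controls, and without it the log2 fold change was -1.33. ACSM1 changed by -1.31 ± 0.08 and ACSL4, which prefers arachidonate, by -0.19 ± 0.04. Calls of CD36 and ACSL4 were lost in 6 and 5 of 17 alternatives. The number called higher in this list was 2 under upper quartile scaling and without formononetin replicate 2, control replicate 2 or control replicate 3, and 3 without formononetin replicate 3.

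Neither of the other CPT1 genes was called. CPT1B, the muscle form, was at 9.45, 8.52 and 7.84 CPM in formononetin libraries, against 10.3, 9.75 and 12.0 CPM in control libraries (-0.31 ± 0.12, adjusted p = 0.116 by edgeR). It shares 2722 exon bases with the readthrough gene CHKB-CPT1B, so its reads may be split. CPT1C, the brain form, had 22 counts over all 6 libraries and was not tested. Genes that set malonyl-CoA, the inhibitor of CPT1A, included both acetyl-CoA carboxylases, which make it and were called higher. In this list of 7 genes, CPT1B and CPT1C included, 6 were tested. Of these 2 were called higher and none lower, with a median log2 fold change of -0.01. Under upper quartile scaling 1 was called lower. ACACA, the form of lipid synthesis, averaged 389 ± 9.87 CPM with formononetin and 299 ± 15.2 CPM in control libraries (0.38 ± 0.05), and ACACB, the form at mitochondria, 33.0 ± 0.734 and 26.4 ± 0.799 CPM (0.32 ± 0.06; SD, n = 3 each). MLYCD, which breaks malonyl-CoA down, did not pass at 23.0 ± 1.12 CPM with formononetin and 22.8 ± 4.83 CPM in control libraries (0.02 ± 0.15, adjusted p = 0.956).

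Among 14 further genes of mitochondrial oxidation, 12 were tested, and 6 were called higher and 1 lower (median 0.24). HADH, the dehydrogenase for medium and short hydroxyacyl chains, was at 32.9, 31.6 and 36.2 CPM in formononetin libraries, against 22.1, 21.4 and 21.0 CPM in control libraries (0.64 ± 0.07, adjusted p = 0.00122 by edgeR). The thiolase gene ACAT1 changed by 0.58 ± 0.05 and DECR1, the reductase for unsaturated chains, by 0.56 ± 0.13. The call of DECR1 was lost without formononetin replicate 1 or 2 and without each control replicate. ACAD10 was the gene called lower (-0.28 ± 0.06), a call lost in 7 of 17 alternatives. ACADL, the long-chain dehydrogenase, had 2 counts in all and was not tested. Electron transfer flavoprotein takes electrons from the acyl-CoA dehydrogenases to ETFDH, and both of its subunits were called higher. ETFB was at 645, 673 and 737 CPM in formononetin libraries, against 528, 535 and 527 CPM in control libraries (0.37 ± 0.05), and ETFA changed by 0.29 ± 0.05. These were the 2 genes called of 6 in that list, with none lower.

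Of 8 genes for acyl-CoA thioesterases and odd-chain oxidation, 3 were called higher and none lower (median 0.16). They were ACOT1 (0.46 ± 0.09), a thioesterase whose near copy ACOT2 may share its reads, MMUT (0.37 ± 0.08) and PCCB (0.24 ± 0.05), both of propionyl-CoA breakdown. The calls of MMUT and PCCB were lost in 4 and 3 of 17 alternatives. None of 5 ketone body genes was called by edgeR in the test used, with 1, BDH2, at an unadjusted p under 0.05 (adjusted p = 0.0530, named after its value was seen). It was called in 5 of 17 alternatives, with DESeq2, under scaling by library total, with a filter of 1 CPM in 3 libraries, without formononetin replicate 2 and with assembled loci kept. By limma voom 0 genes of this list were called.

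Peroxisomal oxidation, which shortens very long chains, had 8 of 11 tested genes called higher and none lower, with a median of 0.42. The share called higher was 12.0% over all genes tested and 22.9% among the 9035 genes at or above the mean level of the lowest member. EHHADH and ABCD3, named after their values were seen, lost their calls in 9 and 7 of 17 alternatives. The number called higher was 6 under upper quartile scaling and with a replicate block. It was also 6 without formononetin replicate 1, 2 or 3 or without control replicate 3. CAT, the catalase that removes the hydrogen peroxide formed, was at 127, 139 and 145 CPM in formononetin libraries, against 91.5, 85.6 and 93.2 CPM in control libraries. The groups did not overlap, and the log2 fold change was 0.60 ± 0.06 (adjusted p = 0.000884 by edgeR). The multifunctional enzyme gene HSD17B4 changed by 0.57 ± 0.04. The median of this list and that of the 10 core genes were close, and no test of the difference was made.

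Of 12 regulators of these genes, 4 were called higher and 1 lower (median 0.19). CREB3L3, a membrane-bound factor of the fasting response, was at 17.6, 17.9 and 17.6 CPM in formononetin libraries, against 5.46, 5.00 and 7.64 CPM in control libraries (1.55 ± 0.16). PPARGC1B, a coactivator of oxidative genes, was at 15.3, 16.2 and 14.7 CPM in formononetin libraries, against 6.55, 7.96 and 8.17 CPM in control libraries (1.02 ± 0.11, adjusted p = 0.00109 by edgeR). HNF4A, the hepatocyte nuclear receptor, changed by 0.44 ± 0.09. LPIN1, named after its value was seen, changed by 0.21 ± 0.06 (adjusted p = 0.0466 by edgeR), a call lost in 11 of 17 alternatives. In those 11 the number called higher was 3. They were DESeq2, limma voom, upper quartile scaling, no low-count filter, a replicate block and each fit without 1 library. PPARGC1A, the related coactivator, changed by -0.23 ± 0.06, a call lost in 8 of 17 alternatives. PPARA, the receptor through which fatty acids raise many oxidation genes, was at 25.6 ± 1.65 CPM with formononetin and 24.8 ± 4.95 CPM in control libraries and did not pass (0.05 ± 0.14, adjusted p = 0.853).

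General genes of mitochondria were described last. Of 16, 8 were called higher and 1 lower, and the median was 0.16. The shares over all genes tested were 12.0% higher and 8.71% lower. Among the 9035 genes at or above the mean level of the lowest member they were 22.9% and 13.3%. TFAM, which packs mitochondrial DNA, changed by 0.44 ± 0.07, CYCS, cytochrome c, by 0.39 ± 0.07 and the outer membrane channel VDAC1 by 0.35 ± 0.08, while TOMM20, an import receptor, changed by -0.39 ± 0.04. The citrate synthase gene CS, often taken as a measure of mitochondrial content, was at 276 ± 4.15 CPM with formononetin and 287 ± 13.9 CPM in control libraries (-0.06 ± 0.05, adjusted p = 0.445 by edgeR). The number called lower was 3 with upper quartile scaling and without control replicate 1, and 2 with DESeq2. In 4 settings the number called higher was 5, namely with upper quartile scaling or when formononetin replicate 1, formononetin replicate 3 or control replicate 1 was left out. No test of the difference between this list and the core genes was made.

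**Figure D4:**
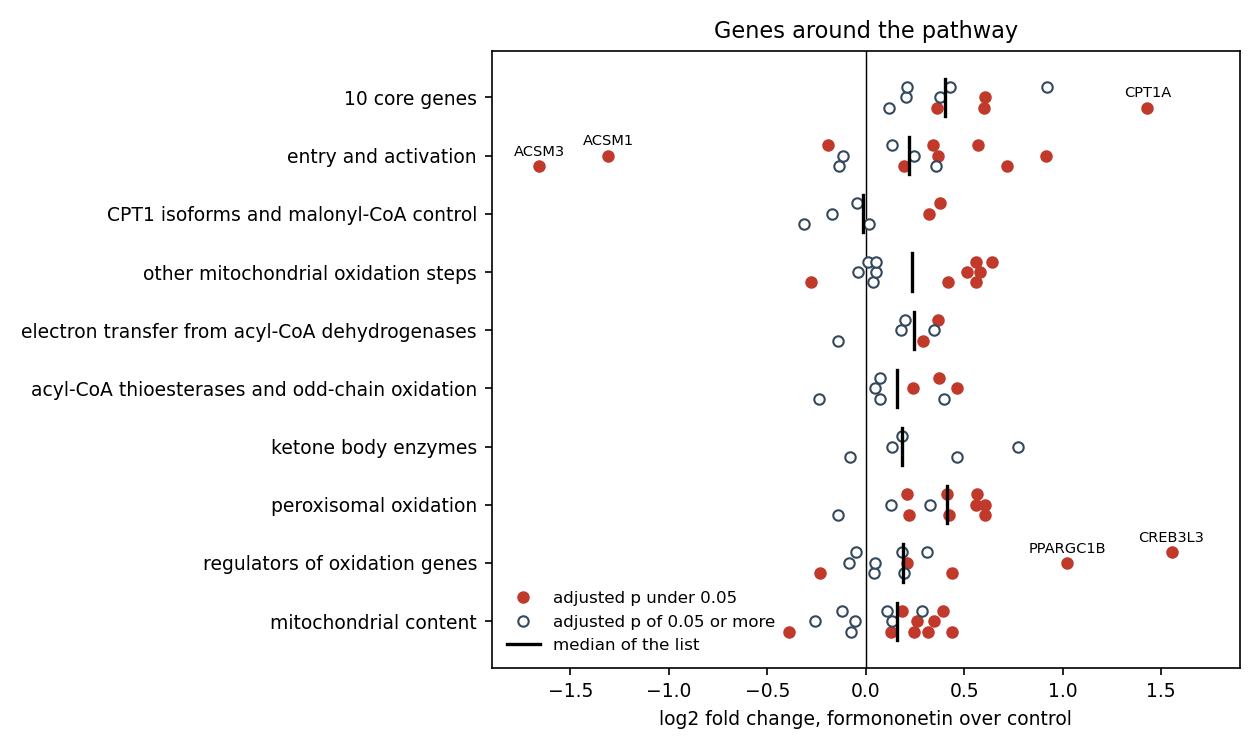
Log2 fold change of formononetin over control for each tested gene of the 10 core genes and 9 surrounding lists; filled red points were called, open points were not, and black bars are list medians. CPT1A, CREB3L3 and PPARGC1B lie farthest to the right and ACSM3 and ACSM1 farthest to the left.

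The genes whose pattern over the 6 libraries was most like that of CPT1A were sought among the 10308 genes that averaged at least 3 in log2 CPM, by the root mean square difference of centred log2 CPM. CLDN4, a tight junction protein, was closest at 0.0288, with 109, 103 and 109 CPM in formononetin libraries, against 41.1, 40.4 and 40.1 CPM in control libraries. It was followed by CNOT9 of the deadenylase complex (0.0407), the lysosomal lipase gene LIPA (0.0551), HSPA12A of the heat shock protein family (0.0622) and the sulfiredoxin gene SRXN1 (0.0641). None is an enzyme of this pathway. SRXN1 shares 2292 exon bases with AL121758.1 on the same strand, so its reads may be split. The nearest members were ACADVL (0.421) and HADHA (0.422), at ranks 452 and 454, and the farthest was CPT2 (0.657). A small difference in this measure says that size and scatter of the change were alike in these 6 libraries.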

How the data were processed

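RNA sequencing libraries of HepG2 cells, 3 with formononetin and 3 control, were made with a stranded mRNA kit, per the labels' protocols. The authors deposited raw counts per gene, whole numbers with no normalization. The submitters' processing notes name GRCh38, STAR 2.5.3a and StringTie 1.3.1c, with no role given, while the counting tool, whether it used strand, and its gene models were not stated there. Reads of genes that share exon bases on either strand may therefore be split or mixed. Of 62729 rows, 2165 are assembled loci without a gene name (3.82 to 5.62% of counts per library), left out of library sizes and tests. Symbols were matched for 60295 of 60564 identifiers, and coordinates and exon lengths come from GENCODE 29 (GRCh38). Promoter sequences and start sites come from RefSeq (GRCh38.p14).

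Genes were filtered with filterByExpr, scaled with TMM and tested with edgeR 4.0.16 (quasi-likelihood F test; R 4.3.3), with group as the only term and a threshold of 0.05 on the Benjamini-Hochberg adjusted p. Each SE was obtained from the log2 fold change and F, and 95% intervals assume a normal error. Ratios, shares and sums were compared by exact permutation over the 6 libraries, two-sided. Log2 CPM used a prior count of 2. Alternatives were DESeq2 1.42.0, limma 3.58.1 voom, other scalings and filters, a replicate block, leaving out mitochondrial and the 10 largest genes, and leaving out each library. Keeping assembled loci and summing exon-sharing genes were added after the data were seen. Since nothing states that replicates were separate cultures, p-values reflect only how these libraries scatter, which may be technical. Libraries of 1 group were compared pairwise, and chi-square per degree of freedom was 15.2 to 39.2, so none was a repeat deposit. Named genes were the 10 members and up to 3 called genes of each list in each direction. To these came 12 genes listed by name and the 5 genes most like CPT1A. CS, BDH2, EHHADH, ABCD3 and LPIN1 were named after their values were seen. Some genes under this rule are not reported here. Lists, like the members, were chosen with earlier results known. Figures were drawn with matplotlib 3.10.9.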

Additional observations from a re-analysis of the deposited data

How the results depend on the processing

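CPT1A, ACADVL, HADHA and HADHB were called in all 17 alternatives and no member changed direction in any. The number of members called higher was 7 with DESeq2 and 7 under scaling by library total, against 4 in the test used, and 4 to 5 when 1 library was left out. The cause of the higher numbers was not tested. SLC25A20, ACADS and ETFDH, whose adjusted p lay just above the threshold, were called in 4 of 17 settings each, ACSL1 in 1 and CPT2 and ACADM in 0. In 1 of the 17 settings CPT2, ACADVL, ACADM and ETFDH were each summed with genes sharing their exon bases. For ETFDH that sum is 1 of the 4, so it is no call of ETFDH alone. Over all genes, leaving out 1 library gave 1703 to 2189 genes higher and 1272 to 1478 lower, against 2659 and 1937 with all libraries; such fits have fewer samples. Libraries with the same replicate number did not deviate together over all genes tested (correlations of -0.00206, 0.00916 and -0.0218). Whether they were prepared as pairs cannot be settled by these correlations. With a replicate block, 1921 genes were higher and 1362 lower, and 5 members were higher, ACADS being added. The block also gave 2 genes higher in the uptake list, 1 in the thioesterase list, and none lower among regulators or further oxidation genes. Without 1 library, the log2 change of the ratio of CPT1A to another member ranged from 1.10 to 1.29 for ACSL1, 0.24 to 0.69 for SLC25A20, 1.29 to 1.35 for CPT2, 0.77 to 0.89 for ACADVL, 1.17 to 1.28 for ACADM, 0.997 to 1.16 for ACADS, 0.77 to 0.87 for HADHA, 1.04 to 1.09 for HADHB and 0.89 to 1.10 for ETFDH, and the difference in the share held by CPT1A from 11.5 to 12.7 percentage points. With 3 libraries a group, exact tests cannot pass 0.05.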
